A study of Danio rerio with 24 samples.

Results

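The genes described here were grouped by name around structural proteins of the outer skin. They are the keratins and cytokeratins (krt and cyt1 names), 16 annexins and the S100-type proteins ictacalcin 1 and 2 (icn, icn2). The plakins periplakin and envoplakin (ppl, evpla, evplb) and the zinc finger transcription factor znf750 complete the set. Some members are known from other epithelia, so their whole-larva values are not those of skin alone. All members were taken by gene name and numbered 45 of the 32520 genes in the deposited tables. By gene name, 19 of them were assigned as type I keratins, 3 as type II keratins (krt4, krt5 and krt8), and krt222 as a keratin-like protein. The best-matching proteins in the deposited descriptions gave the same types, except for krt4, whose match (intermediate filament protein ON3) states no type. RNA came from wild-type zebrafish (Danio rerio), labelled whole embryo and collected at 120 hours post fertilisation (hpf), after exposure from 0.75 hpf to perfluorohexane sulfonate (PFHxS), a persistent fluorinated surfactant. Doses were 0 µM, called vehicle here, 0.0025 µM and 25 µM, all 3 in 0.1% dimethyl sulfoxide. Each dose was given in constant darkness (24 h dark, called darkness here) and under a light-dark cycle (14 h of light, then 10 h of dark), which made 6 groups of 4 libraries. The photoperiod was read from the sample titles, since the treatment description speaks of dark conditions throughout. The comparisons ask what each dose did to these genes in each photoperiod, whether the 25 µM effect differed between photoperiods, and how the vehicle groups differed.

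Keratins are intermediate filament proteins that assemble as pairs of 1 type I and 1 type II chain and give epithelial cells their mechanical strength. Annexins bind membrane phospholipids in the presence of calcium. In mammals, periplakin and envoplakin tie keratin filaments to desmosomes and to the envelope laid down beneath the membrane of differentiating keratinocytes, and ZNF750 promotes the late steps of that differentiation. The skin of a zebrafish larva is thinner and stays alive at its surface: a superficial layer descended from the embryonic periderm, marked by cyt1, cyt1l, krt17, krt4, icn, ppl and evpla, covers basal keratinocytes, marked by krtt1c19e. In bulk RNA, fewer cells of a type and less RNA per cell cannot be told apart.

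Fragments counted over genes numbered 8.44 to 14.5 M in each of the 12 dark libraries and 10.1 to 18.5 M in each of the 12 cycle libraries. Values are FPKM, fragment counts per unit of gene length and depth, which were tested as log2(FPKM + 0.1) with limma over all genes that had at least 0.5 FPKM in at least 4 libraries. A gene is called changed at a Benjamini-Hochberg adjusted p under 0.05, and fold changes are on the log2(FPKM + 0.1) scale, which understates changes of low genes. Of the 45 members, 43 were tested in darkness and in the fits over all 24 libraries, and 42 under the cycle. The genes krt95 and krt98 were too low everywhere, with at most 3 and 17 fragments in any library, and krt18a.2 was too low under the cycle. The labels do not say that replicates came from separate clutches, so the p-values reflect only the scatter among these libraries, and that scatter may be technical. Near-identical keratin and annexin neighbours may have split or shared fragments, and the sources do not say whether the counting used strand. Skeletal muscle markers summed to 31008 to 49029 FPKM per library, which shows muscle RNA in each but does not check the labelled whole-embryo composition further.

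Levels differed widely among the members. The most abundant by mean FPKM over all libraries were krt91 (1714 FPKM), krtt1c19e (841 FPKM), cyt1 (826 FPKM), krt4 (732 FPKM), icn (649 FPKM) and krt17 (435 FPKM). At the other end, krt5 averaged 0.706 FPKM and znf750 2.42 FPKM. Among the members, the 3 type II genes summed to less than the 19 type I genes. In darkness with vehicle, summed type I keratins reached 5441 to 6765 FPKM per library. Summed type II keratins reached 631 to 1580 FPKM, of which krt4 supplied most. Any keratin genes under other names were not counted, so these sums do not give the balance of all type I and type II chains.

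Exposure to 25 µM PFHxS in darkness lowered most of the abundant keratins, among them superficial and basal markers. Both ictacalcins, all 3 plakins, znf750 and 4 annexins were lower as well. Of the 43 tested members 19 fell and 2 rose, together 48.8% of them, where 21.8% of all tested genes changed. By direction, 44.2% of the members fell against 9.6% of all genes, and 4.65% rose against 12.2%. The members were chosen with earlier results of these data known, which favours such an excess. These shares, and those counted by library below, therefore describe the members and are no test of the set. The median log2 fold change was −0.49 over the members and −0.01 over all tested genes. Counted by library, 15 members had all 4 exposed libraries below all 4 vehicle libraries and 2 had them above, 39.5% of those tested, against 25.2% of all genes (11.8% below and 13.5% above). The plot of fold changes by class shows the members side by side in both photoperiods.

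**Figure D1:**
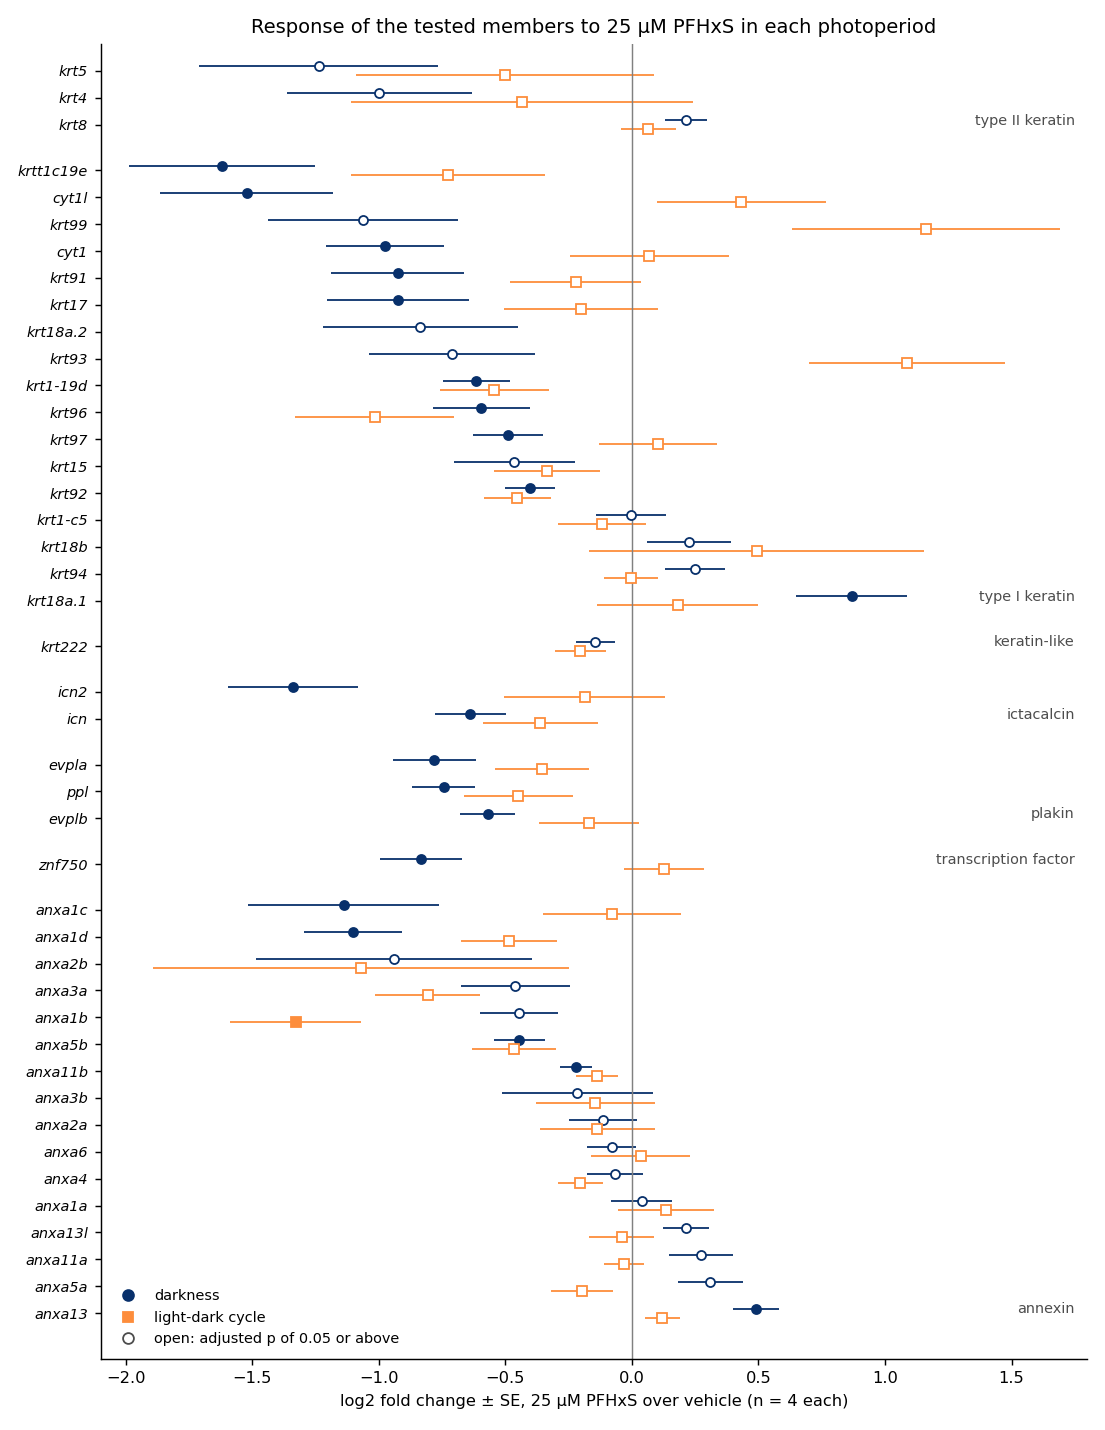
Log2 fold change at 25 µM PFHxS over vehicle (x axis, log2(FPKM + 0.1) scale, ± SE, 4 libraries per group) for each tested member, grouped by protein class. Circles are darkness and squares the light-dark cycle, and filled symbols passed an adjusted p of 0.05: 21 in darkness (19 on the left of zero) and 1 under the cycle (anxa1b).

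A block of 7 type I keratin genes stands on chromosome 19 between 5324653 and 5380770, in the coordinates of the deposited tables: krt1-19d, krtt1c19e, krt92, cyt1l, cyt1, krt17 and krt91. All 7 fell in darkness at 25 µM, with log2 fold changes of −1.62 to −0.40. The basal keratinocyte keratin krtt1c19e (5339364 to 5345932) had 877, 377, 178 and 473 FPKM in libraries 1 to 4 at 25 µM, against 1236, 1296, 1126 and 1387 FPKM in vehicle libraries. Every exposed library was below every vehicle library, and library 3 was the lowest. For krtt1c19e this gave a log2 fold change of −1.62 ± 0.37 (SE, limma, Benjamini-Hochberg adjusted p = 0.00721).

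The superficial keratin cyt1l (5356421 to 5358455) had 448, 158, 161 and 206 FPKM at 25 µM, against 660.1, 680.2, 497 and 718 FPKM with vehicle. Library 1 at 25 µM lay close under the lowest vehicle library, and the other three were far below. On the log2 scale cyt1l changed by −1.52 ± 0.34 (SE, limma, Benjamini-Hochberg adjusted p = 0.00677). Its neighbour cyt1, another superficial keratin, had 1055, 465, 458 and 595 FPKM at 25 µM and 1051, 1358, 1042 and 1344 FPKM with vehicle. Here library 1 at 25 µM fell within the vehicle range and the rest did not. The fitted log2 fold change was −0.98 ± 0.23 (SE, limma, Benjamini-Hochberg adjusted p = 0.00983).

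The most abundant keratin among the members, krt91 (5378563 to 5380770), had 1458, 757, 437 and 787 FPKM at 25 µM, against 1499.8, 1505, 1375 and 1591 FPKM with vehicle. Again library 1 alone reached the vehicle range. Its log2 fold change was −0.93 ± 0.26 (SE, limma, Benjamini-Hochberg adjusted p = 0.0232). The pattern of krt17, a superficial keratin, was alike: 472, 234, 137 and 228 FPKM at 25 µM and 407, 496, 380.5 and 584 FPKM with vehicle. In the fit krt17 had a log2 fold change of −0.92 ± 0.28 (SE, limma, Benjamini-Hochberg adjusted p = 0.0324). The calls of krt91 and krt17 were lost when particular single libraries were left out, 3 libraries for krt91 and 5 for krt17. That of krt17 was also lost with only the compared groups fitted (limma adjusted p = 0.0614).

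Smaller falls with separate groups were measured for krt92 and krt1-19d of the block. The type I keratin krt92 had 324, 249, 252 and 241 FPKM at 25 µM and 335, 349, 354 and 361 FPKM with vehicle, a log2 change of −0.40 ± 0.1 (SE, limma adjusted p = 0.0118). For krt1-19d the values were 102, 74.0, 72.7 and 82.1 FPKM at 25 µM and 120.5, 136, 117 and 129 FPKM with vehicle, a log2 change of −0.62 ± 0.13 (SE, limma adjusted p = 0.0054). Summed over the 7 genes, FPKM came to 4735, 2314, 1695 and 2612 at 25 µM, against 5310, 5820, 4891 and 6114 with vehicle. All 4 exposed sums were below the lowest vehicle sum, with library 1 closest to it.

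Type I keratins outside that block moved less uniformly. On chromosome 22, krt97 and krt96 were lower at 25 µM in darkness, with log2 fold changes of −0.49 ± 0.14 (SE) and −0.59 ± 0.19 (SE) (limma adjusted p = 0.0227 and 0.0428). For krt97, whose groups overlapped through library 1, the call was lost with any of 4 single libraries left out. The call of krt96 was lost with any of 7 and under 3 other settings (limma-voom, no filter on low values and the replicate block). The 4 tested genes of the chromosome 11 block (krt93, krt94, krt15 and krt99, at 11454545 to 11575070) had log2 fold changes of −1.06 to 0.25 and none passed. Among them krt99, at 0.37 to 0.95 FPKM in exposed libraries and 1.20 to 2.15 FPKM in vehicle libraries, missed the threshold with −1.06 ± 0.38 (SE, limma adjusted p = 0.0615), and its 4 exposed libraries were all below the vehicle ones.

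The type I keratin that rose was krt18a.1. It encodes a keratin 18 of the kind that pairs with keratin 8 in simple, single-layered epithelia. This gene had 37.7, 33.0, 50.0 and 55.1 FPKM at 25 µM in darkness, against 19.0, 33.8, 22.9 and 20.9 FPKM with vehicle. Of the exposed libraries, only library 2 came within the vehicle range, just under the highest vehicle library. This amounted to a log2 fold change of 0.87 ± 0.22 (SE, limma, Benjamini-Hochberg adjusted p = 0.0129). The related krt18b was at 0.22 ± 0.17 (SE) and its neighbour on chromosome 23, krt18a.2, at −0.84 ± 0.39 (SE), neither past the threshold (limma adjusted p = 0.378 and 0.146).

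No type II keratin among the members was called. The partner of keratin 18, krt8, had 127, 111, 114 and 109 FPKM at 25 µM and 109, 99.6, 90.1 and 99.2 FPKM with vehicle. The groups met without crossing, the lowest exposed library standing level with the highest vehicle library. Its log2 fold change of 0.21 ± 0.08 (SE) missed the threshold (limma adjusted p = 0.0832). The superficial keratin krt4 had 706, 309, 413 and 638 FPKM at 25 µM, against 1434, 530.2, 812 and 1480.1 FPKM with vehicle. Vehicle libraries 1 and 4 were high, and vehicle library 2 lay among the exposed ones. Its log2 fold change was −1.0 ± 0.36 (SE, limma adjusted p = 0.0691). Without vehicle library 2 it was −1.29 (adjusted p = 0.0224), and without exposed library 1 it was −1.17 (adjusted p = 0.0463). With limma-voom krt4 was at −1.02 (adjusted p = 0.0312). The third gene, krt5, had 2 to 65 fragments per library and a fitted value of −1.24 ± 0.47 on the log2 scale (SE, limma adjusted p = 0.0814).

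Both ictacalcins fell. These small calcium-binding proteins of the S100 family are encoded within 150 kb of each other on chromosome 16 (icn at 23431189 to 23432552, icn2 at 23487051 to 23491093). Ictacalcin 1 had 584, 384, 389 and 364 FPKM at 25 µM in darkness, against 645, 714, 594 and 681 FPKM with vehicle. Exposed library 1 came close under the lowest vehicle library, while the other three lay together far below. The log2 fold change of icn was −0.64 ± 0.14 (SE, limma, Benjamini-Hochberg adjusted p = 0.0057). Ictacalcin 2 had 131, 90.8, 54.2 and 64.1 FPKM at 25 µM, against 224, 214, 153 and 230.0 FPKM with vehicle. No exposed library reached the vehicle range. For icn2 this gave a log2 fold change of −1.34 ± 0.26 (SE, limma, Benjamini-Hochberg adjusted p = 0.00267), the third largest called fall among the members.

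All 3 plakin genes fell with no overlap between groups. Periplakin, ppl (chromosome 3, 36459790 to 36481986), had 45.7, 30.4, 34.5 and 37.5 FPKM at 25 µM in darkness, against 63.4, 60.4, 54.4 and 68.3 FPKM with vehicle. On the log2 scale ppl changed by −0.74 ± 0.13 (SE, limma, Benjamini-Hochberg adjusted p = 0.00118). Envoplakin a, evpla (chromosome 6, 23057311 to 23082678), had 6.45, 4.26, 5.34 and 5.01 FPKM at 25 µM and 9.48, 8.05, 7.57 and 11.4 FPKM with vehicle. The fitted log2 fold change was −0.78 ± 0.16 (SE, limma, Benjamini-Hochberg adjusted p = 0.00455). Envoplakin b, evplb, on an unplaced scaffold, had 39.3, 27.5, 31.4 and 33.1 FPKM at 25 µM and 48.0, 49.6, 46.9 and 49.1 FPKM with vehicle. Its vehicle libraries were the most uniform of the 3 genes. Its log2 fold change was −0.57 ± 0.11 (SE, limma, Benjamini-Hochberg adjusted p = 0.00246).

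The transcription factor gene znf750 (chromosome 3, 48253202 to 48259289) was low in level but tight within groups. It had 1.13, 1.32, 1.37 and 1.30 FPKM at 25 µM in darkness, against 2.56, 2.53, 2.42 and 1.98 FPKM with vehicle. Every exposed library was below every vehicle library, and here library 1 was the lowest of the 4 exposed ones. In the fit znf750 had a log2 fold change of −0.83 ± 0.16 (SE, limma, Benjamini-Hochberg adjusted p = 0.00295). With 48 to 312 fragments per library, its values rest on fewer reads than those of the abundant keratins.

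**Figure D2:**
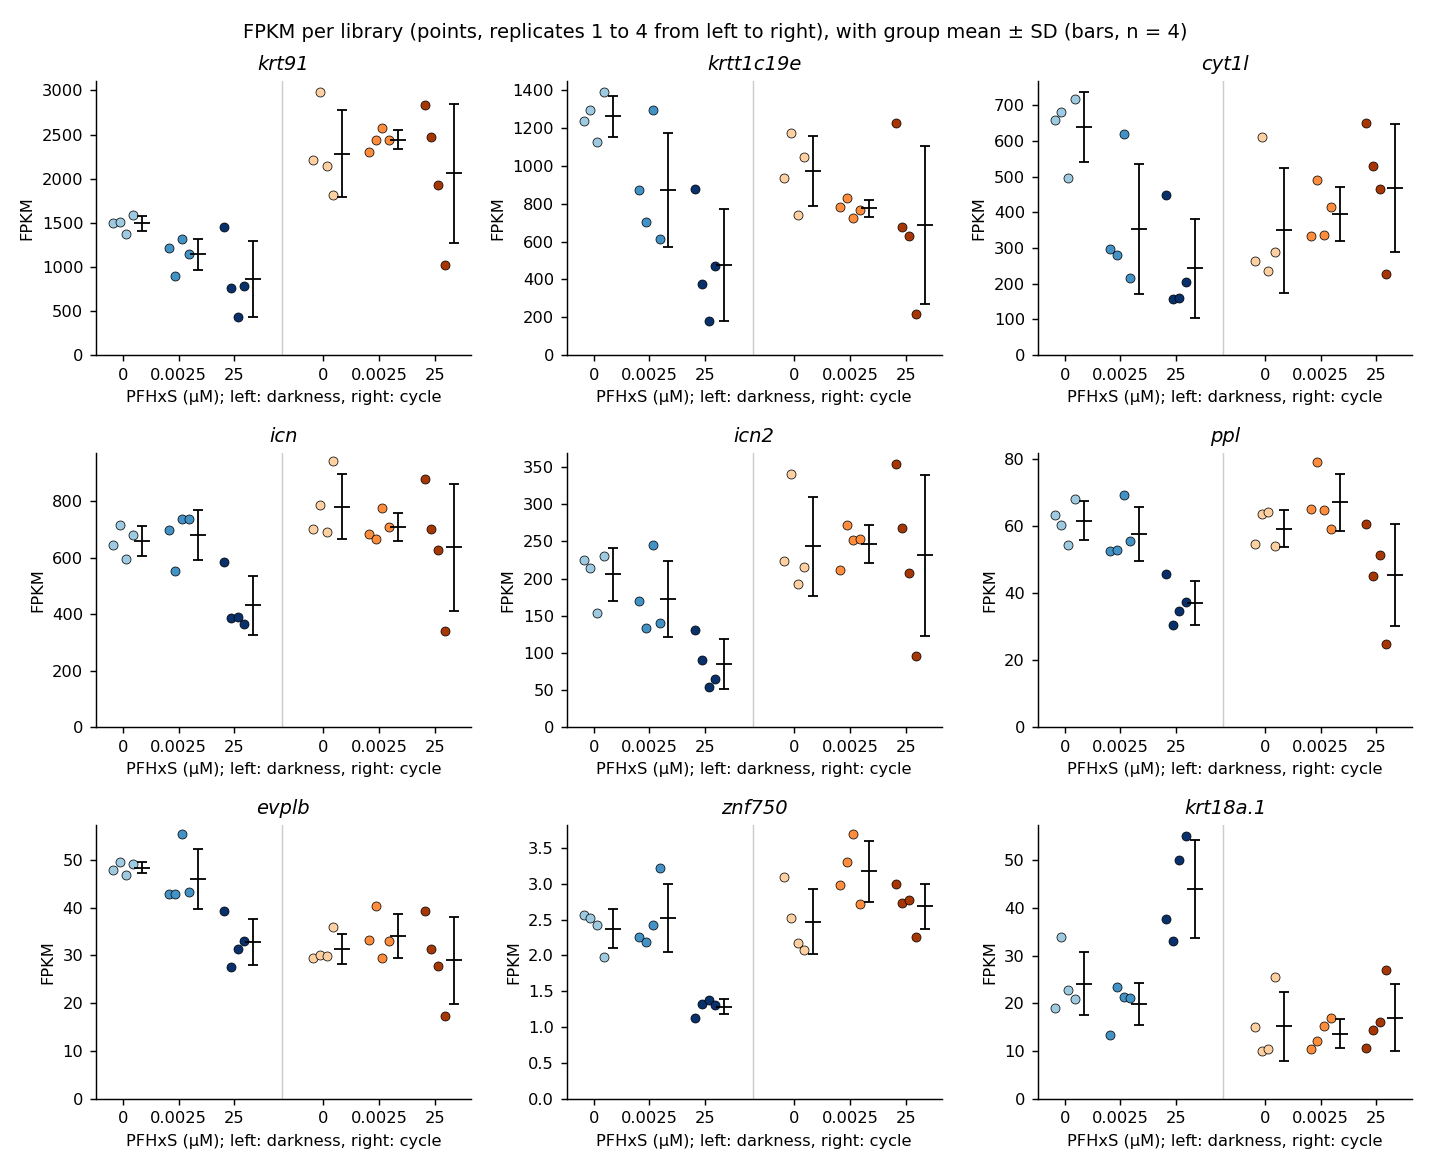
FPKM per library (points, replicates 1 to 4 from left to right; y axis from 0) for 9 members by PFHxS dose (x axis, µM), with darkness on the left and the light-dark cycle on the right of each panel. Bars are group means ± SD (n = 4). In darkness the 25 µM mean lies lowest in all panels but krt18a.1, and the first 25 µM library is the highest of its 4 for most keratins. Under the cycle the fourth 25 µM library is the lowest in all panels but krt18a.1, where it is the highest.

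Annexins split. Of 16, all tested, 4 fell, 1 rose and 11 did not pass. Both of the anxa1 genes that fell belong to a group on chromosome 5 (anxa1d, anxa1c and anxa1b, at 64994085 to 65037525). Annexin A1 is known in mammals as a mediator that limits inflammation. The gene anxa1d had 6.52, 6.11, 4.21 and 4.06 FPKM at 25 µM in darkness, against 15.1, 11.4, 7.81 and 11.2 FPKM with vehicle, with no overlap. This amounted to a log2 fold change of −1.10 ± 0.19 (SE, limma, Benjamini-Hochberg adjusted p = 0.00155). Its neighbour anxa1c had 30.1, 17.7, 6.43 and 8.24 FPKM at 25 µM and 27.6, 31.3, 26.2 and 30.1 FPKM with vehicle. Exposed library 1 lay within the vehicle range, and libraries 3 and 4 were the lowest. The log2 fold change of anxa1c was −1.14 ± 0.38 (SE, limma, Benjamini-Hochberg adjusted p = 0.0468), a call that was lost with any of 6 single libraries left out and under 2 other settings. The third gene of the group, anxa1b, had exposed library 3 within the vehicle range and the rest below it, with −0.45 ± 0.15 (SE) (limma adjusted p = 0.0557). It was called lower with limma-voom (adjusted p = 0.0325) and with a mean FPKM of at least 2 (limma adjusted p = 0.0454). The same held with only the compared groups fitted, with scaling to total fragments and without exposed library 3. Under the other alternatives anxa1b was not called.

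The phosphatidylserine-binding annexin A5 gene anxa5b had 40.0, 29.9, 37.1 and 33.5 FPKM at 25 µM in darkness and 44.2, 47.5, 44.5 and 54.7 FPKM with vehicle. Its groups did not overlap. For anxa5b this gave a log2 fold change of −0.45 ± 0.1 (SE, limma, Benjamini-Hochberg adjusted p = 0.00681). A smaller fall was called for anxa11b, at −0.22 ± 0.063 (SE) (limma adjusted p = 0.0245), and was lost with any of 6 single libraries left out. The annexin that rose was anxa13, which is known in mammals from the intestinal epithelium. It had 41.1, 43.7, 53.3 and 41.3 FPKM at 25 µM and 35.2, 28.8, 31.0 and 32.3 FPKM with vehicle, and the groups were separate. On the log2 scale anxa13 changed by 0.49 ± 0.09 (SE, limma, Benjamini-Hochberg adjusted p = 0.00201). The summed annexins came to 521 to 616 FPKM per library at 25 µM and 586 to 634 FPKM with vehicle, overlapping ranges.

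All members together took 0.691% to 1.29% of the fragments of a library at 25 µM in darkness (median 0.822%), against 1.40% to 1.77% with vehicle (median 1.56%). Type I keratins alone took 0.364% to 0.876% at 25 µM and 0.936% to 1.13% with vehicle, ranges that did not overlap. The 4 exposed libraries did not respond evenly: library 1 was the highest of its group for 17 of the 19 members that fell and reached the vehicle range for 5 of them (anxa1c, cyt1, krt17, krt91 and krt97). Without it, 21 members were again called, with krt4 called and krt96 not. Across all alternatives, 13 of the 19 falls and both rises were called every time, while anxa1c, anxa11b, krt17, krt91, krt96 and krt97 were not.

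**Figure D3:**
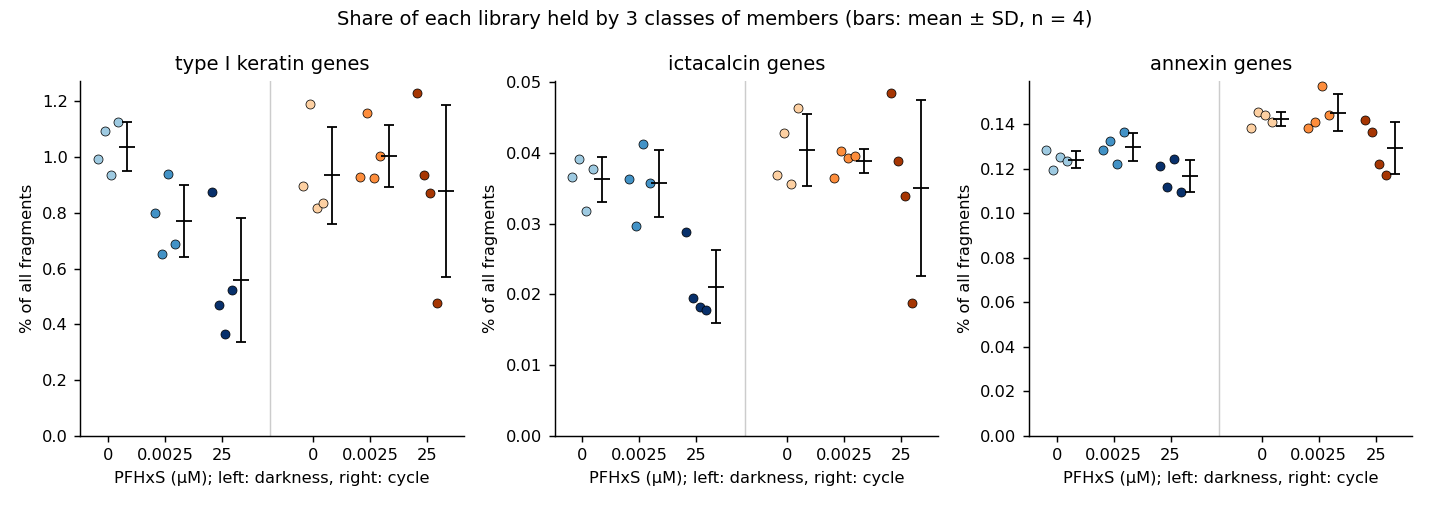
Percent of all counted fragments of a library held by type I keratin, ictacalcin and annexin genes (y axes, from 0) by PFHxS dose (x axis, µM), darkness left and cycle right, with points for libraries 1 to 4 and bars for mean ± SD (n = 4). In darkness the type I share at 25 µM stays below the vehicle share in every library, whereas the annexin shares overlap.

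Markers of other cells moved in the same libraries, where 12.2% of all tested genes were called higher and 9.6% lower. At 25 µM in darkness all 10 proliferating-cell markers fell, with a median log2 fold change of −1.52, and they summed to 71.4 to 146 FPKM at 25 µM against 239 to 252 FPKM with vehicle. Of 9 ionocyte markers, which label the ion-transporting cells of the same skin, 4 rose and none fell, and the list summed to 465 to 595 FPKM against 301 to 346 FPKM. Notochord and cartilage markers showed 1 rise and 5 falls of 8 (412 to 575 FPKM at 25 µM, 609 to 692 FPKM with vehicle, 1 matched marker at 0 throughout), and enterocyte markers 0 and 4 of 8 (365 to 485 FPKM and 439 to 482 FPKM). Hepatocyte markers had 3 rises and 4 falls of 10 (2471 to 3827 FPKM and 3539 to 3781 FPKM), neuron markers 0 and 2 of 8 (729 to 820 FPKM and 824 to 870 FPKM). Mucous cell markers had 2 rises and no fall of 8 (473 to 497 FPKM and 405 to 445 FPKM), and skeletal muscle markers had 0 calls of 9 (31008 to 36473 FPKM and 34189 to 36288 FPKM). Their part in the change of the members was not tested. Mitochondrially encoded transcripts took 5.17% to 5.40% of fragments at 25 µM and 5.08% to 5.65% with vehicle, overlapping ranges.

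Other genes of the skin were counted in 5 lists for the same comparison, in which 21.8% of all tested genes were called. Of 11 tested desmosome and adherens junction genes 2 fell, the desmoplakin gene dspa (−0.55 ± 0.11) and the plakophilin gene pkp1b (−0.60 ± 0.15). Of 14 hemidesmosome and epidermal basement membrane genes 4 fell and 1 rose: the collagen XVII gene col17a1a (−0.53 ± 0.13) and the Fraser-complex genes frem1b, frem2a and frem2b fell, with log2 fold changes of −0.56, −0.65 and −0.46, and the plectin gene plecb was at 0.27 ± 0.076. Of 16 epidermal transcription factors 1 rose, klf6a (0.44 ± 0.084), and 1 fell, tfap2a (−0.23 ± 0.061). Of 21 envelope and barrier enzymes 2 fell, the calpain gene capn9 (−0.86 ± 0.19) and the lipoxygenase gene alox12 (−0.43 ± 0.11), and the lipid transporter gene abca12 rose (0.40 ± 0.10). Of 13 S100 and annexin-binding partners 2 fell, s100w (−1.07 ± 0.20) and the giant scaffold gene ahnak (−0.36 ± 0.11). These bracketed values are log2 fold changes ± SE, each with a limma adjusted p under 0.05. The medians of the 5 lists, in the same order, were −0.25, −0.44, 0.08, −0.18 and −0.09, against −0.01 over all genes.

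Under the light-dark cycle, 1 of the 42 tested members was called at 25 µM, and it was lower, where 1.73% of all tested genes were called and 0.629% were lower. This was anxa1b, which had 38.3, 38.9, 47.3 and 25.5 FPKM at 25 µM, against 91.4, 66.6, 126 and 93.2 FPKM with vehicle. All exposed libraries were below all vehicle libraries. The fitted log2 fold change was −1.33 ± 0.26 (SE, limma, Benjamini-Hochberg adjusted p = 0.0277). The call was lost with any of 6 of the 8 libraries left out, and then the adjusted p was 0.0516 to 0.0835. For 6 members, 14.3% of those tested, all 4 exposed libraries were below the vehicle ones, against 4.65% of all genes in that direction and 9.47% in either. Those 6 include anxa1b itself and krt92, with 289, 256, 289.7 and 196 FPKM at 25 µM and 335, 419, 352 and 298 FPKM with vehicle (log2 fold change −0.45 ± 0.13 (SE, limma adjusted p = 0.114), not past the threshold).

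Exposed cycle libraries were spread widely. Library 4 at 25 µM was the lowest of its group for 18 of the 19 members that had fallen in darkness, and library 1 the highest for 15. Periplakin had 60.6, 45.1, 51.5 and 24.8 FPKM at 25 µM, against 54.8, 63.8, 64.2 and 54.1 FPKM with vehicle. Library 4 was far below the rest, and library 1 lay within the vehicle range. Its log2 fold change was −0.45 ± 0.22 (SE, limma adjusted p = 0.337). Ictacalcin 1 had 879.9, 699.5, 628 and 338 FPKM at 25 µM, against 702, 785, 691 and 940.1 FPKM with vehicle, again with library 4 lowest. The fitted value was −0.36 ± 0.23 (SE) (limma adjusted p = 0.473). For krtt1c19e the libraries read 1228, 676, 631 and 216 FPKM at 25 µM and 938, 1171, 738 and 1046 FPKM with vehicle, overlapping ranges with −0.73 ± 0.38 (SE) (limma adjusted p = 0.387). Without library 4, no member was called.

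Of the 19 members that fell in darkness, 15 had a negative fold change under the cycle and 4 a positive one (cyt1, cyt1l, krt97 and znf750), with values of −1.02 to 0.43 and a median of −0.22. In 16 of the 19 the size was smaller than in darkness. Since the 19 were chosen by passing in darkness, smaller estimates elsewhere are favoured by that choice. This count is therefore no test of a difference between photoperiods. The same marker lists stood beside these values. Under the cycle, proliferating-cell markers summed to 71.1 to 143 FPKM at 25 µM, against 165 to 246 FPKM with vehicle, with 1 of 10 called lower. Ionocyte markers summed to 285 to 369 FPKM against 251 to 274 FPKM, with 1 of 9 called higher. Mucous cell, enterocyte and notochord markers each had 1 of 8 called lower. Hepatocyte markers had 1 rise and 1 fall of 10 (2247 to 4317 FPKM at 25 µM, 3260 to 4226 FPKM with vehicle). Skeletal muscle markers had 0 calls of 10 and neuron markers 0 of 8. Mitochondrially encoded transcripts took 5.78% to 5.99% of fragments at 25 µM under the cycle and 4.88% to 5.42% with vehicle. The part of these shifts in the members' values was not tested. Of the 5 further skin lists, col17a1a alone was called under the cycle, at −0.59 ± 0.12 (log2, ± SE, limma adjusted p = 0.0346). Of all tested genes, 1.73% were called in that comparison.

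The difference between the 25 µM effects, darkness minus cycle, was tested in 1 fit over all 24 libraries. The dark and cycle libraries belong to separate library series. Constant offsets between the series cancel in this difference, but a response particular to a series cannot be told apart from one of photoperiod. The difference was called for 1 of 43 members, where 1.16% of all tested genes were called and 0.189% were called with a negative difference, as here. That member was znf750. Its cycle libraries had 3.0, 2.72, 2.77 and 2.25 FPKM at 25 µM, against 3.09, 2.53, 2.18 and 2.08 FPKM with vehicle, overlapping groups with 0.13 ± 0.16 (SE) (limma adjusted p = 0.759), where in darkness it was lower. The difference was −0.96 ± 0.22 (SE, limma adjusted p = 0.0285). It did not pass with replicate number as a block (adjusted p = 0.0593) or with any of 9 of the 16 libraries of the compared groups left out.

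For the remaining members the difference did not pass, so an unequal response to 25 µM in the 2 photoperiods was not shown for them. The largest estimates were those of krt99 (−2.22 ± 0.67 (SE, limma adjusted p = 0.109)), a gene of few fragments, and cyt1l (−1.96 ± 0.51 (SE, limma adjusted p = 0.065)). Under the cycle cyt1l had 650.4, 529, 467 and 226 FPKM at 25 µM and 264, 610.4, 235 and 288 FPKM with vehicle. Library 4 was the lowest of the exposed ones, and vehicle library 2 stood high above the other three. The difference for cyt1l was called without exposed cycle library 4 (−2.27, adjusted p = 0.0149), without exposed dark library 1 (−2.30, adjusted p = 0.0151) and without vehicle cycle library 2 (−2.26, adjusted p = 0.0327). Without exposed cycle library 4, 5 members were called in all, namely znf750, cyt1l, krt97, icn2 and krt99, and without exposed dark library 1 there were 3, namely znf750, cyt1l and krt93. For periplakin the difference was −0.30 ± 0.26 (SE, limma adjusted p = 0.691).

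At 0.0025 µM no member was called in either photoperiod. In darkness 3 of 43 members had an unadjusted limma p under 0.05, and under the cycle 3 of 42. The share of all genes under that unadjusted threshold was not counted, so these counts have no background to be read against. By adjusted p, 0.021% of all genes were called in darkness and 0% under the cycle. The test on recovered fragments with limma-voom likewise called no member in either photoperiod. In darkness the fold changes of type I keratins leaned downward, with 16 of 17 negative and values of −0.96 to 0.03, none past the threshold. Their median was −0.28, against 0.001 over all tested genes. All 17 estimates share the same vehicle libraries, so their signs are not independent and their count is no test. Groups that did not overlap were found for 2 members (4.65% of those tested, against 4.55% of all genes), both lower at 0.0025 µM, as were 2.36% of all genes. These were krt91, with 1211, 896, 1314 and 1151 FPKM at 0.0025 µM against 1499.8, 1505, 1375 and 1591 FPKM with vehicle, and krt17, with 365, 303, 259 and 284 FPKM against 407, 496, 380.5 and 584 FPKM. Their log2 fold changes were −0.40 ± 0.26 (SE) (limma adjusted p = 0.785) for krt91 and −0.62 ± 0.28 (SE) (limma adjusted p = 0.67) for krt17.

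Library 3 of the dark 0.0025 µM group was the highest of its 4 for cyt1l, krtt1c19e and icn2. For cyt1l the group had 298, 281, 619.9 and 216 FPKM at 0.0025 µM, against 660.1, 680.2, 497 and 718 FPKM with vehicle, where library 3 alone was within the vehicle range. This gave the lowest fold change at that dose, −0.96 ± 0.34 (SE, limma adjusted p = 0.58). Of the 19 members that fell at 25 µM in darkness, 15 had a mean at 0.0025 µM between those of the vehicle and the 25 µM groups, and the 2 doses share their vehicle libraries. The 19 were chosen by a fall at 25 µM against these same vehicle libraries, which favours a mean between. That count is therefore no test of a gradient with dose. Under the cycle type I keratins at 0.0025 µM had 9 positive and 7 negative fold changes and a median of 0.08, against −0.02 over all tested genes. The ictacalcins and plakins at 0.0025 µM ranged over −0.28 to 0.04 in darkness and over −0.13 to 0.23 under the cycle.

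Between the vehicle groups, darkness against the cycle, 11 of 43 members were called, 25.6% against 20.1% of all tested genes. Of these 4 were higher in darkness and 7 lower, where 9.24% of all genes were higher and 10.8% lower. The 12 dark and 12 cycle libraries belong to separate library series and separately scaled tables, so photoperiod and library series cannot be told apart in this comparison. Factors set jointly over the 24 libraries also gave 11 calls.

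Higher in darkness were 3 keratins of low level and envoplakin b. The type I keratin krt93 had 3.25, 4.95, 3.99 and 3.87 FPKM in darkness, against 0.204, 0.468, 0.321 and 0.663 FPKM under the cycle. These levels rest on 48 to 69 fragments per dark library and 5 to 19 per cycle library. Its log2 fold change was 3.07 ± 0.36 (SE, limma, Benjamini-Hochberg adjusted p = 3.29e-06). A keratin 18 gene, krt18a.2, had 1.8, 2.29, 3.09 and 2.06 FPKM in darkness and 0.303, 0.851, 0.454 and 0.371 FPKM under the cycle, from 25 to 43 and 7 to 12 fragments. In the fit krt18a.2 had a log2 fold change of 2.07 ± 0.45 (SE, limma, Benjamini-Hochberg adjusted p = 0.00248). This gene was too low to be tested under the cycle and passed the filter on low values only through dark libraries. Its being tested was therefore not independent of the direction of the difference. In the same chromosome 11 block as krt93, krt99 had a log2 change of 1.81 ± 0.47 (SE, limma adjusted p = 0.00912). With a pseudocount of 1 these low-level log2 values shrank to 1.83 for krt93, 1.14 for krt18a.2 and 0.89 for krt99, each still called. A minimum mean of 2 FPKM left krt18a.2 and krt99 untested. The envoplakin gene evplb had 48.0, 49.6, 46.9 and 49.1 FPKM in darkness and 29.4, 30.1, 29.97 and 36.0 FPKM under the cycle, and every dark library was above every cycle library. This amounted to a log2 fold change of 0.63 ± 0.17 (SE, limma, Benjamini-Hochberg adjusted p = 0.0103).

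Of the 7 members lower in darkness, 4 were annexins. The gene krt1-c5, which encodes a type I keratin best matched by keratin 18, had 10.6, 7.11, 8.58 and 6.76 FPKM in darkness, against 21.9, 14.0, 22.2 and 22.3 FPKM under the cycle. The log2 fold change of krt1-c5 was −1.27 ± 0.16 (SE, limma, Benjamini-Hochberg adjusted p = 7.95e-06), the smallest p among the lower members. Annexin A1a had 69.5, 66.7, 73.1 and 70.2 FPKM in darkness and 118, 209, 121 and 111 FPKM under the cycle. Dark libraries were close together, and cycle library 2 stood well above the rest. For anxa1a this gave a log2 fold change of −0.95 ± 0.17 (SE, limma, Benjamini-Hochberg adjusted p = 0.00035). Its relatives anxa1c and anxa1d were lower as well, with −1.29 ± 0.35 (SE, limma adjusted p = 0.0126) for anxa1c and −0.65 ± 0.20 (SE, limma adjusted p = 0.0247) for anxa1d.

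The other three called members were the type I keratin krt15 (log2 fold change −0.83 ± 0.24 (SE, limma adjusted p = 0.0173)), the annexin A5 gene anxa5a (−0.54 ± 0.13 (SE, limma adjusted p = 0.00499)) and envoplakin a, evpla (−0.60 ± 0.18 (SE, limma adjusted p = 0.0233)). The envoplakin genes thus differed in opposite directions between the vehicle groups: evpla had 9.48, 8.05, 7.57 and 11.4 FPKM in darkness and 13.0, 13.0, 16.9 and 12.3 FPKM under the cycle. Calls of anxa1d, evpla and krt15 were each lost with any of 3 single libraries left out. The abundant or superficial members krt91, krtt1c19e, cyt1, cyt1l, krt4, krt17, icn and ppl were not called, and their estimates ran in both directions. The log2 fold change was 0.97 ± 0.36 (SE) for cyt1l, 0.79 ± 0.58 (SE) for krt4 and 0.78 ± 0.30 (SE) for cyt1, with limma adjusted p of 0.0641, 0.363 and 0.0672. Both cyt1 and cyt1l were called higher in darkness with limma-voom, with only the compared groups fitted, with scaling to total fragments and without cycle vehicle library 2. The log2 fold change was −0.09 ± 0.31 (SE) for krt17, 0.06 ± 0.19 (SE) for ppl and 0.39 ± 0.40 (SE) for krtt1c19e (limma adjusted p of 0.876, 0.863 and 0.53), and −0.24 ± 0.20 (SE) for icn and −0.59 ± 0.28 (SE) for krt91 (limma adjusted p of 0.433 and 0.139). With only the compared groups fitted, krt91 was called lower in darkness.

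**Figure D4:**
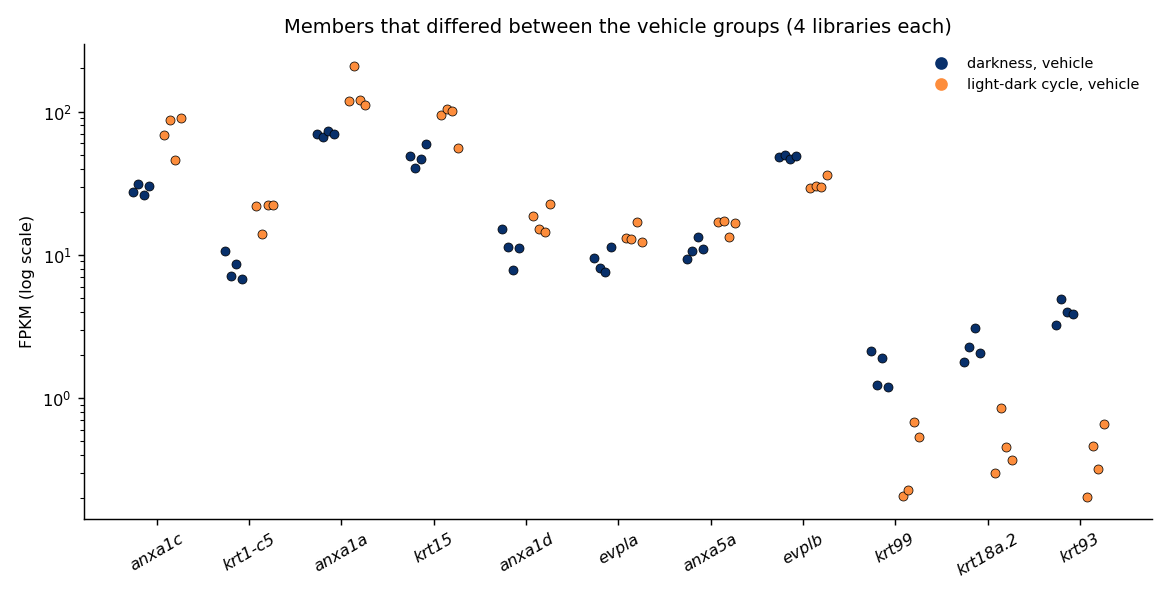
FPKM (log scale) of the 11 members called between the vehicle groups, with the 4 darkness libraries on the left and the 4 light-dark cycle libraries on the right of each pair, ordered from the largest fall to the largest rise in darkness. The groups overlap for krt15 and anxa1d through 1 dark library each and are separate for the other members.

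The list counts that follow stand against 20.1% of all tested genes called between the vehicle groups, 9.24% higher and 10.8% lower. Among the further skin lists, vehicle darkness against the cycle called 5 of 16 epidermal transcription factors, all lower, with the grainyhead gene grhl3 at −1.50 ± 0.27. It also called 4 of 11 junction genes, all lower, 0 of 14 basement membrane genes, 5 of 21 envelope enzymes (2 higher, 3 lower, with the transglutaminase gene tgm1 at −1.02 ± 0.20), and 3 of 13 S100 partners (1 higher, s100a11 at 1.53 ± 0.20, and 2 lower). Values in brackets or after "at" are log2 fold changes ± SE with a limma adjusted p under 0.05. Of the marker lists, 6 of 8 enterocyte markers were higher in darkness and none lower, while mucous cell markers showed 2 higher and 4 lower of 9 and skeletal muscle markers 1 higher and 7 lower of 10. Ionocyte markers had 4 higher and 1 lower of 9, proliferating-cell markers 3 higher of 10, neuron markers 2 higher of 8, notochord markers 1 higher of 8 and hepatocyte markers none of 10. Their part in the members' differences was not tested.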

How the data were processed

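RNA was sequenced from 24 whole-larva libraries, 4 per group. Per the submitters' processing notes, alignment used HISAT2 2.0.5 and counting featureCounts 1.5.0-p3. The genome build is not given in the sources used here. The authors deposited FPKM (fragment counts per unit of gene length and depth) as 2 tables, 1 per photoperiod, each with its own scaling. In every library, all deposited FPKM above 0 (100%), times gene length, were whole multiples of 1 unit, so fragments could be recovered. The tolerance was 0.001 of a unit, widened in proportion to the count for high counts. No pair of libraries was identical.

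Values were tested as log2(FPKM + 0.1) with limma 3.58.1 in R 4.3.3, with genes of at least 0.5 FPKM in at least 4 libraries kept and p-values adjusted by Benjamini-Hochberg over all genes of a fit. Effects of a dose were fitted on the 12 libraries of a photoperiod, and comparisons between photoperiods on all 24 with 1 mean per group. The procedure was run on simulated data with the same dispersion for all genes and changes set only in well-counted genes. That run therefore does not cover members with few fragments or a wide spread. Alternatives were limma-voom on recovered fragments, a pseudocount of 1, other filters, a replicate block, fits on only the groups compared, other scalings, and each library left out in turn.

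Members were found by gene name, and keratin types were assigned by gene name as well. Genes within 150 kb of each other are called a block. The members, the 5 further skin lists and the 8 marker lists were chosen with earlier results of these data known. Named in full are up to 8 called rises and 8 called falls per comparison with a mean of at least 1 FPKM, the 6 most abundant members, and icn, icn2, ppl, evpla, evplb and znf750. Other members and values named beside them were chosen after their values were seen. Low fragment numbers limit the precision of krt5, krt93, krt99, krt18a.2, krt96 and znf750. Sequences are not used here.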

Additional observations from a re-analysis of the deposited data

Results flagged for a closer look

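Single libraries that stood apart from the others of their group were found in 20 of 245 combinations of a member and a group. The rule was a gap to the nearest library above Dixon's critical value, on FPKM. Combinations with a group mean under 1 FPKM were left out. Chance alone gives about 1 in 20 for normally spread values. The combinations share libraries and are not independent, so the count does not show an excess over chance. In the 25 µM dark group, library 1 stood high for icn (584 FPKM), cyt1l (448 FPKM) and krt92 (324 FPKM), and library 3 stood low for anxa13l (11.5 FPKM). In the dark 0.0025 µM group, library 3 stood high for evplb (55.5 FPKM). In the dark vehicle group, library 1 stood high for anxa4 (86.0 FPKM) and krt5 (2.72 FPKM), library 2 low for krt18b (26.2 FPKM) and library 4 low for anxa6 (21.3 FPKM).

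Under the cycle, library 2 at 25 µM stood high for anxa2b (3.73 FPKM). At 0.0025 µM, library 3 stood high for anxa1a (174 FPKM) and library 2 low for anxa1b (48.0 FPKM). In the cycle vehicle group, library 2 stood high for cyt1l (610.4 FPKM), anxa1a (209 FPKM) and krt94 (45.8 FPKM) and low for krt1-c5 (14.0 FPKM). In that group, library 3 stood high for evpla (16.9 FPKM) and low for anxa5a (13.4 FPKM), and library 4 stood high for evplb (36.0 FPKM) and low for anxa6 (15.8 FPKM).

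The 25 µM effect on znf750 differed between darkness and the cycle by −0.96 on the log2 scale (limma adjusted p = 0.0285, 4 libraries per group). This call was lost with the replicate block and with any of 9 of the 16 libraries of the compared groups left out. Within darkness alone, 4 of 4 exposed libraries were lower than any vehicle library, while under the cycle the groups overlapped. Photoperiod and library series cannot be told apart in this difference.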

How the results depend on the processing

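At 25 µM in darkness, 19 to 22 members were called under the alternatives with all libraries (21 as reported, 20 with the replicate block) and 15 to 21 with 1 library left out. Under the cycle, 25 µM called 1 member in each alternative with all libraries, the replicate block included, and 0 to 2 with 1 library left out. The 0.0025 µM comparisons called 0 in every alternative in both photoperiods. For the difference of the 25 µM effects, darkness minus cycle (1 as reported), limma-voom, a mean FPKM of at least 2 and scaling to total fragments each called 2, adding cyt1l, the replicate block called 0, and leaving out 1 library gave 0 to 5. Darkness against the cycle in vehicle called 11 as reported, 9 to 14 under alternatives with all libraries (14 with the replicate block) and 9 to 13 with 1 library left out. No called value of a member was reversed under any of these alternatives. The causes were not tested. Replicate numbers did not pair the libraries: deviations of same-numbered libraries correlated with r of −0.14 to 0.12 (12 pairs in each photoperiod), so a call lost under the block is not read as a weaker effect. With 4 libraries per group and few fragments for krt5, krt93, krt99 and krt18a.2, small changes of these genes were not detectable at this depth.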
